A study of Mus musculus with 8 samples.

Results

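The genes described here are Tex15, its nuclear partners in piRNA-directed DNA methylation, and the enzymes that write and copy DNA methylation. They were chosen by name, and all 10 were found among the 27532 genes of the deposited table. RNA sequencing was done on the vomeronasal organ (VNO), the chemosensory organ of the nasal septum that detects pheromones, from 8 adult mice. The 4 controls were heterozygous for Tex15 (Tex15Het, 1 male and 3 females, 11.4 to 14.6 weeks old), and 4 animals were Tex15 knockouts (Tex15KO, 3 males and 1 female, 11.9 to 12.1 weeks old). The control animals therefore carry 1 disrupted copy themselves, no wild-type animals were analysed here, and the design of the knockout allele is not given in the sources used here. The whole organ was used, so each value is an average over neurons, supporting cells, glands, blood and immune cells.

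DNA methylation is laid down by de novo methyltransferases and copied to the new strand after each round of DNA replication by a maintenance enzyme. In the fetal male germ line, small RNAs called piRNAs direct de novo methylation to young transposons. The PIWI protein PIWIL4 (MIWI2) carries piRNAs into the nucleus, where SPOCD1 and TEX15 are needed for the methylation step. PIWIL2 (MILI) works in the cytoplasm, where it makes the piRNAs that PIWIL4 receives. Most of these genes are known for their activity in germ cells, whereas the general methyltransferases are used in many tissues.

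Several libraries stood apart before any comparison. The 2 heterozygous animals of replicates 1 and 2 carried numbers below 7100 in the labels, and the other 2 heterozygous and all 4 knockout animals carried numbers in the 7100s, and comparisons restricted to the 7100s are added where a result depends on them. The library names end in a further number, whose meaning is not given in the sources used here. Heterozygous replicates 1 and 2 and knockout replicate 4 each had their own, and the remaining libraries shared the same number. Omp, the marker of mature chemosensory neurons, stood at 66.6 TPM in heterozygous replicate 1 and at 571 to 943 TPM in the other libraries, while the vomeronasal G protein subunits Gnai2 and Gnao1 were detected in each of the 8 libraries (114 to 302 and 11.5 to 30.7 TPM). Cyp2g1, an enzyme of olfactory supporting cells, stood at 758 TPM in heterozygous replicate 2 and at 20.1 to 84.7 TPM elsewhere. TPM is a share of all transcripts, corrected for exon length and scaled so that each library sums to 1000000, and 10 gland and supporting cell genes together took 93389 to 251503 TPM. A library factor was therefore computed as the median, over genes, of a library's value divided by that gene's geometric mean over the 8 libraries. It ran from 0.666 in heterozygous replicate 2 to 1.39 in heterozygous replicate 3, and from 0.867 to 1.34 in the knockout libraries. Reads recovered from the table totalled 17899601 to 26423921 per library, with knockout replicate 1 lowest.

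Tex15 (ENSMUSG00000009628, chr8:33516738-33585582, GRCm38 as all gene positions here) was lower in every knockout library than in any heterozygous library, yet its RNA was still measured in all 4 knockouts. Heterozygous replicates 1 to 4 had 2.72, 2.29, 2.81 and 2.27 TPM, from 428, 317, 248 and 252 reads. Knockout replicates 1 to 4 had 0.870, 1.23, 1.12 and 1.14 TPM, from 81, 142, 115 and 117 reads. The lowest heterozygous value thus lay well above the highest knockout value, and the knockout mean was 43.3% of the heterozygous mean (1.09 ± 0.155 against 2.52 ± 0.279 TPM, SD, n = 4). The two-sided exact permutation test gave p = 0.0286, the smallest that 70 assignments of 8 libraries can give. Of all tested genes, the groups did not overlap in 1.4%, and 0.926% were lower in every knockout library. In the limma fit over 20305 genes, with sex as a term, Tex15 differed by −1.22 on the log2 scale from the shift of the median gene (SE 0.38, 95% interval −2.02 to −0.42). The p-values are of the difference before the shift of the median gene is taken off. Intervals throughout are centred on the value after the shift, with the width of the unshifted difference. A p-value and an interval can therefore disagree. The unadjusted p was 0.0145 and the limma adjusted p 0.794, so Tex15 was not past the threshold of 0.05. Limma after division by the library factor gave −1.21 (SE 0.24), unadjusted p 0.00106 and adjusted p 0.112, also not past the threshold. By limma-voom on recovered reads the log2 fold change was −1.60 (SE 0.23) with an adjusted p of 0.0185. That is past the threshold, as was the drop in 0.421% of genes. Limma-voom scaled libraries by total reads, without the library factor. A gene total does not show which exons the remaining reads came from.

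The difference was present within each sex and within the 7100s animals, but these subsets are not matched for the other label. The only male heterozygous animal was numbered below 7100. Within the 7100s the heterozygous animals were all female and most knockouts were male. Of the knockouts, only replicate 1 shared both sex and number series with heterozygous animals, those of replicates 3 and 4. Among females, the knockout library stood at 0.870 TPM against 2.27 to 2.81 TPM in 3 heterozygous libraries. Among males, 3 knockout libraries stood at 1.12 to 1.23 TPM against 2.72 TPM in the heterozygous library. Within the 7100s the knockout mean was 43.0% of the heterozygous mean (exact permutation p = 0.0667, the smallest that 15 assignments can give). In the limma fit of the 7100s animals, without the sex term, the log2 fold change was −0.74 (95% interval −1.46 to −0.02, adjusted p = 0.685), and in the fit of all 8 libraries with the animal series as a term it was −0.80 (−1.63 to 0.03, adjusted p = 0.471). Division by the library factor moved the heterozygous libraries apart: replicates 1 and 2, the animals numbered below 7100, went to 3.54 and 3.45 TPM, and replicates 3 and 4 to 2.01 and 2.06 TPM. The knockout libraries then lay at 0.853 to 1.42 TPM, still below all 4 heterozygous ones. After this scaling the knockout mean was 37.2% of the heterozygous mean over all 8 libraries and 50.6% within the 7100s.

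**Figure D1:**
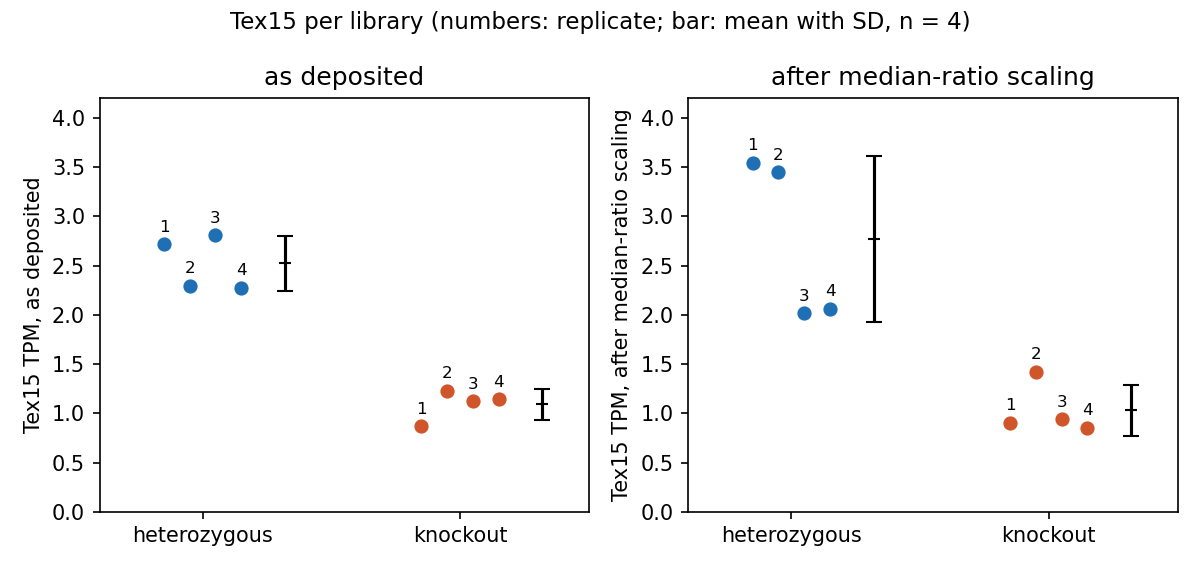
Tex15 in TPM (vertical axis, from 0) in each library by genotype, as deposited (left) and divided by the library factor (right), with the replicate number at each point and the mean with SD (n = 4) beside each group. The groups do not overlap in either panel, and heterozygous replicates 1 and 2 rise above replicates 3 and 4 only in the right one.

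Tex15 was also set against neuronal genes measured in the same library, a ratio that a common library factor cannot move. Per 1000 TPM of Gnao1, the G protein subunit of basal vomeronasal neurons, Tex15 stood at 91.5 to 199 TPM in heterozygous and 47.1 to 67.7 TPM in knockout libraries. Per 1000 TPM of Gnai2, the subunit of apical neurons, it stood at 8.62 to 20.2 and 3.91 to 5.69 TPM. Neither ratio overlapped between the groups, nor did that to Omp (2.69 to 40.8 and 1.52 to 1.78 TPM per 1000 TPM), where heterozygous replicate 1 alone held the 40.8. The ratio to Gng13, a G protein subunit that stood at 79.2 TPM in heterozygous replicate 2 and at most 38.3 TPM elsewhere, did overlap (29.0 to 91.0 and 32.4 to 40.7). In bulk tissue, fewer cells of a type and less RNA per cell cannot be told apart.

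The 10 genes spanned a wide range of levels (plot of levels by library). Dnmt1, the maintenance methyltransferase, was highest, with a mean of 7.82 TPM over the 8 libraries, and Dnmt3a, a de novo methyltransferase, followed with 6.36 TPM. Uhrf1, the protein that brings DNMT1 to hemimethylated DNA, had a mean of 3.15 TPM and Tex15 one of 1.81 TPM. Piwil2 (0.950 TPM) and the second de novo methyltransferase Dnmt3b (0.784 TPM) came next. Piwil4 (0.336 TPM), the helicase gene Tdrd9 (0.126 TPM), Dnmt3l (0.0362 TPM) and Spocd1 (0.0335 TPM) were lowest. Dnmt1 exceeded Dnmt3a, Dnmt3a exceeded Uhrf1, Dnmt3b exceeded Piwil4 and Piwil4 exceeded Tdrd9 in 8 of 8 libraries. The order of Piwil2 and Dnmt3b (5 of 8 libraries) and of Dnmt3l and Spocd1 (4 of 8) was not fixed. Uhrf1 exceeded Tex15 in 2 of 4 heterozygous and 4 of 4 knockout libraries. TPM divides by the length of all annotated exons, which is 16642 bases for Dnmt3a and 7377 for Dnmt1, and Dnmt3a gave more reads (9482 over the 8 libraries) than Dnmt1 (5178).

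**Figure D2:**
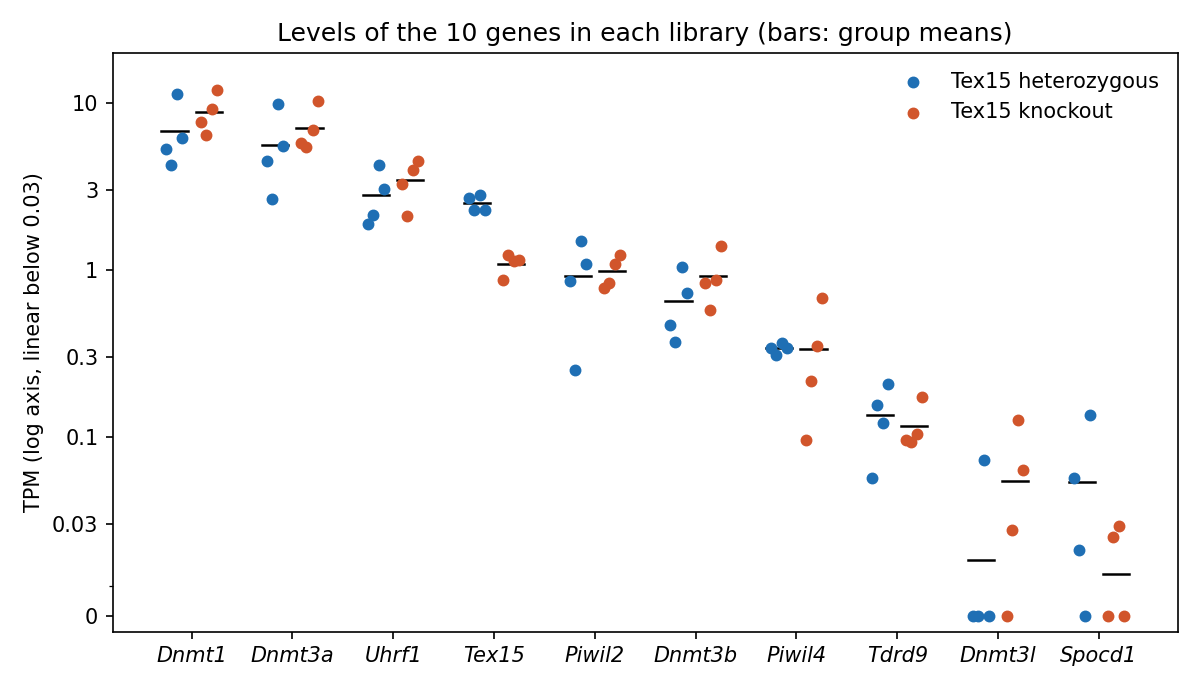
Level of each gene in TPM (vertical axis, logarithmic above 0.03 and linear below) in the 4 heterozygous (blue) and 4 knockout (orange) libraries, with group means as bars and genes ordered by their mean. Only Tex15 separates the 2 groups, and Dnmt3l and Spocd1 are at 0 in 4 and 3 libraries.

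The partners of Tex15 in the germ cell pathway ranged from almost no reads in Spocd1 to 19 to 74 reads per library in Piwil2. Spocd1 (ENSMUSG00000028784, chr4:129929249-129957115), the nuclear partner of PIWIL4, gave 3, 1, 0 and 5 reads in heterozygous replicates 1 to 4 and 0, 1, 1 and 0 reads in knockout replicates 1 to 4. That is 11 reads in all, and 6 of 8 libraries were below 3 reads, which for this gene correspond to 0.0568 to 0.101 TPM. Its level was not distinguishable from 0 in those libraries at this depth. Tdrd9 (ENSMUSG00000054003, chr12:111971559-112068854), a Tudor domain helicase that works with PIWIL4, gave 5 to 13 reads in each library, at 0.0564 to 0.208 TPM. Its knockout values all lay within the heterozygous range. Piwil4 (ENSMUSG00000036912, chr9:14696230-14740733) was measured more firmly, from 171 reads. Its 4 heterozygous libraries lay close together at 0.340, 0.310, 0.364 and 0.338 TPM, and the knockout libraries spread on both sides of them at 0.0958, 0.217, 0.349 and 0.679 TPM. The group means differed by less than the spread (0.338 ± 0.0219 and 0.335 ± 0.251 TPM, SD, n = 4), and the knockout spread rests on 5 reads in replicate 1 and 39 in replicate 4. Piwil2 (ENSMUSG00000033644, chr14:70372477-70429383), the cytoplasmic PIWI gene, was the highest of the partners. It had 0.855, 0.250, 1.48 and 1.08 TPM in heterozygous replicates 1 to 4 and 0.782, 0.837, 1.09 and 1.22 TPM in knockout replicates 1 to 4. The knockout values all lay inside the heterozygous range, whose low end, heterozygous replicate 2, came from 19 reads.

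Of the de novo methylation genes, Dnmt3a and Dnmt3b were expressed, and Dnmt3l had fewer than 3 reads in 7 of 8 libraries. Dnmt3l (ENSMUSG00000000730, chr10:78041947-78063622) encodes a catalytically inactive cofactor that works with DNMT3A in germ cells. It gave 0, 0, 2 and 0 reads in heterozygous and 0, 1, 4 and 2 reads in knockout replicates 1 to 4, with 3 reads worth 0.0613 to 0.109 TPM. Dnmt3a (ENSMUSG00000020661, chr12:3806007-3914443) stood at 4.48, 2.65, 9.83 and 5.54 TPM in heterozygous and 5.80, 5.43, 6.95 and 10.2 TPM in knockout replicates 1 to 4. The groups overlapped, with heterozygous replicate 3 and knockout replicate 4 high and heterozygous replicate 2 low. Dnmt3b (ENSMUSG00000027478, chr2:153649450-153687730) stood at 0.467, 0.368, 1.05 and 0.731 TPM in heterozygous and 0.8295, 0.572, 0.866 and 1.40 TPM in knockout replicates 1 to 4, with the same libraries at its ends. Dnmt3a exceeded Dnmt3b by 7.00 to 9.60 times in every library, with mean ratios of 8.44 ± 1.23 and 7.96 ± 1.10 in the heterozygous and knockout groups (SD, n = 4). An antisense gene, Dnmt3bos, overlaps Dnmt3b and was listed at a mean of 2.46 TPM, above Dnmt3b itself. The library kit keeps strand, but whether the counting used it is not given in the sources used here, so reads of the 2 genes may not be told apart.

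The maintenance genes were highest in the same libraries, but the lowest library of Uhrf1 was heterozygous replicate 1. Dnmt1 (ENSMUSG00000004099, chr9:20907209-20959888) stood at 5.30, 4.23, 11.4 and 6.20 TPM in heterozygous and 7.76, 6.43, 9.22 and 12 TPM in knockout replicates 1 to 4. Uhrf1 (ENSMUSG00000001228, chr17:56303321-56323486) stood at 1.88, 2.13, 4.25 and 3.06 TPM in heterozygous and 3.30, 2.10, 4.0 and 4.49 TPM in knockout replicates 1 to 4. In both genes the groups overlapped, and heterozygous replicate 3 and knockout replicate 4 were the highest of their groups. The ratio of Dnmt1 to Dnmt3a lay between 1.12 and 1.60 in every library, with means of 1.27 ± 0.224 and 1.26 ± 0.0890 (SD, n = 4). The ratio of Tex15 to Dnmt1 fell into 2 separate ranges, 0.246 to 0.542 in heterozygous and 0.0950 to 0.192 in knockout libraries.

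This shared pattern went with the library factor (plot of levels against it). Across the 8 libraries the Pearson correlation of the log2 level with the log2 factor was 0.95 for Dnmt3a, 0.94 for Dnmt1, 0.93 for Dnmt3b, 0.93 for Uhrf1 and 0.89 for Piwil2, against a median of 0.84 over all tested genes, whose values also make up the factor. For Tex15 it was −0.19. Division by the factor lowered the coefficient of variation over the 8 libraries from 36.3% to 14.6% for Dnmt1, from 40.6% to 19.1% for Dnmt3a and from 32.9% to 13.6% for Uhrf1. The median tested gene went from 33.0% to 21.1%, and Tex15 from 43.9% to 57.6%.

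**Figure D3:**
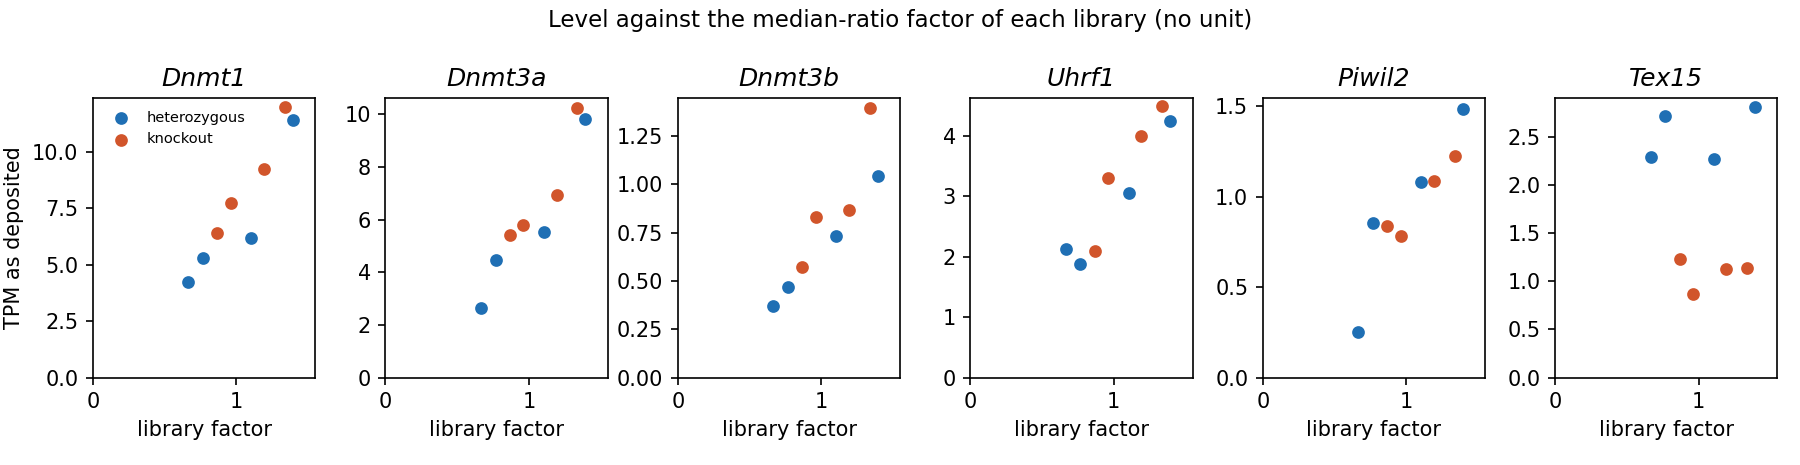
Level in TPM as deposited (vertical axes, from 0) against the library factor (horizontal axes, no unit) for 6 genes, with heterozygous libraries in blue and knockout libraries in orange. Dnmt1, Dnmt3a, Dnmt3b, Uhrf1 and Piwil2 rise with the factor in both groups, whereas Tex15 forms an upper heterozygous and a lower knockout set.

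The genotype comparison asks which of these genes differed between Tex15 knockout and heterozygous animals. Of the 10 genes, 6 averaged 0.5 TPM or more and were tested, and 0 of these 6 were called (limma, adjusted p under 0.05), where 0.586% of all tested genes were. At an unadjusted p under 0.05 there was 1, Tex15, where 3.1% of genes were, and limma-voom also called 1, Tex15, where it called 0.515% of genes. Over all genes 43 were called higher (0.212%) and 76 lower (0.374%) in the knockouts. After division by the library factor 0.767% were called, 28 higher (0.139%) and 127 lower (0.629%), and 0 of the 6 genes tested were among them. The median gene moved by 0.19 on the log2 scale as deposited and by −0.01 after division by the factor, so the fold changes of tested genes are given relative to it. They were 0.25 for Dnmt1 (SE 0.42, 95% interval −0.62 to 1.13), 0.21 for Uhrf1 (SE 0.42, −0.67 to 1.09), 0.19 for Dnmt3a (SE 0.45, −0.74 to 1.12) and 0.16 for Dnmt3b (SE 0.41, −0.69 to 1.01), each with a limma adjusted p of 0.9995. For Piwil2 the value was −0.13 (SE 0.43, −1.02 to 0.76). These intervals admit changes of either sign. After division by the factor they narrowed, to −0.13 to 0.61 for Dnmt1 and −0.15 to 0.59 for Uhrf1. The middle of all tested genes, from the lower to the upper quartile, ran from −0.15 to 0.15. The 4 genes under 0.5 TPM were tested only with no filter on low values, where limma called 0.262% of genes. Of these 4, 0 were called and 0 had an unadjusted p under 0.05, where 3.42% of all genes in that fit had. The log2 differences, here before the shift of the median gene (0.15 in that fit) is taken off, were −0.20 for Piwil4 (SE 0.25), −0.12 for Spocd1 (SE 0.14), 0.0063 for Tdrd9 (SE 0.17) and 0.06 for Dnmt3l (SE 0.15). The added 0.5 TPM exceeds the mean level of each of these genes and holds such differences near 0, and taking the shift off would turn the sign for Tdrd9 and Dnmt3l.

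**Figure D4:**
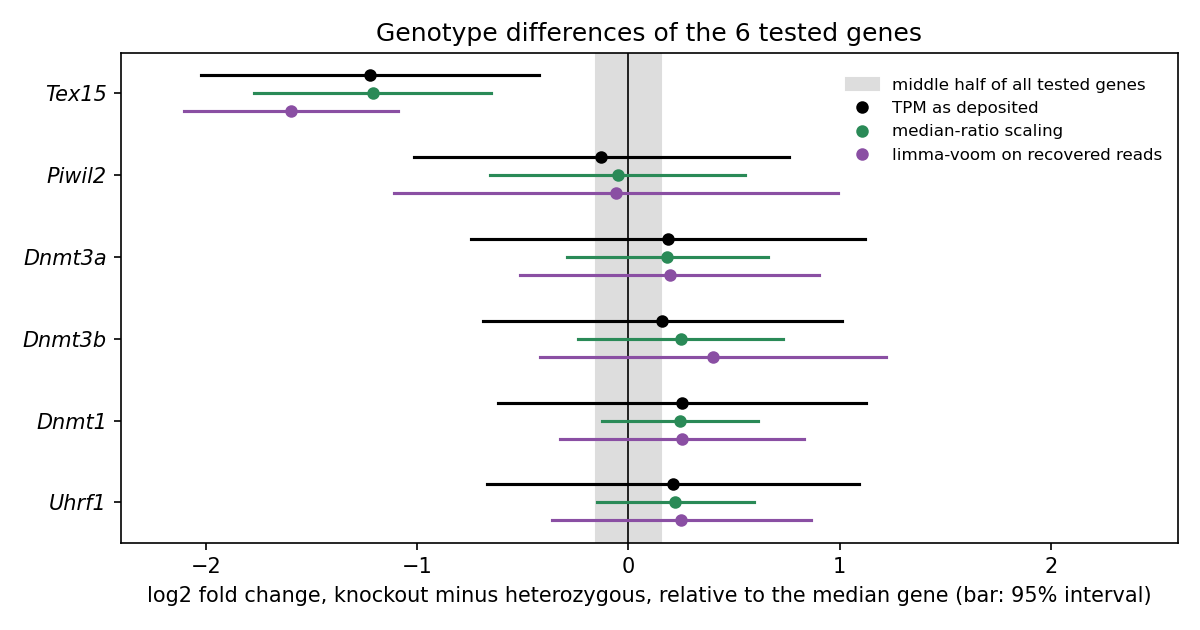
Log2 difference between knockout and heterozygous libraries, less that of the median gene (horizontal axis), with 95% intervals, for the 6 tested genes on TPM as deposited (black), after division by the library factor (green) and by limma-voom on recovered reads (purple). The grey band runs from the lower to the upper quartile of all tested genes, and Tex15 alone has intervals that lie wholly below 0.

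DNMT1 and UHRF1 act at replicating DNA, so both genes were compared with 16 proliferation genes such as Mki67 and Top2a. All 16 were tested and 0 called by limma or limma-voom, which is near the 0.586% and 0.515% of all genes called. With values divided by the library factor, Pearson's r over the 8 libraries was 0.53 for Uhrf1 (exact permutation p = 0.178, adjusted 0.356 over 2 relations, Spearman's rho 0.50, p = 0.216, adjusted 0.432). For Dnmt1 it was 0.13 (exact permutation p = 0.755, adjusted 0.755, rho 0.17, p = 0.703, adjusted 0.703). Without the 2 libraries farthest from the median, heterozygous replicate 1 and knockout replicate 1, r was 0.03 for Uhrf1 and −0.13 for Dnmt1. Within the 6 libraries of the 7100s animals r was 0.25 and 0.09 (exact permutation p = 0.658 and 0.874). On TPM as deposited the same relations had r = 0.94 and 0.90 (exact permutation p = 0.000694 and 0.00345, adjusted 0.00139 and 0.00345), so they passed the threshold only where the library factor was left in.

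The other piRNA pathway genes ranged from barely detected to high. Of 24 further piRNA pathway genes, 17 had a row in the table and 10 were tested. Of these, 0 were called by limma or limma-voom, where 0.586% and 0.515% of all genes were, and 0 had an unadjusted p under 0.05, where 3.1% of all genes had. A count of 0 among so few genes is near those shares and says nothing particular about them, which holds for each list that follows as well. The median log2 fold change was −0.06, with 2 genes above the median gene and 8 below it. The genes with the highest levels have roles outside germ cells: the chaperone gene Hsp90aa1 (575 ± 160 and 564 ± 133 TPM in heterozygous and knockout libraries, SD, n = 4) and Tdrd7, a Tudor gene also used in the lens (17.9 ± 5.43 and 19.0 ± 4.31 TPM). The largest fold changes were those of Morc1, a germ cell silencing factor (2.79 ± 0.701 and 2.36 ± 1.48 TPM, log2 fold change −0.42, SE 0.47), and Morc2a, a chromatin compaction factor (8.63 ± 3.96 and 11.5 ± 2.80 TPM, 0.25, SE 0.42). Both were below their standard error in size, with limma adjusted p of 0.9995.

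Among 25 other genes of DNA methylation, demethylation and methyl-DNA binding, 24 were listed and all 24 were tested. By limma and by limma-voom 0 were called (0.586% and 0.515% of all genes), 0 had an unadjusted p under 0.05, 16 lay above the median gene and 8 below it, and the median was 0.06. The methyl-CpG binding genes Mbd2 (56.9 ± 21.3 and 57.8 ± 8.52 TPM) and Mbd3 (54.5 ± 14.5 and 54.8 ± 13.1 TPM) were highest (SD, n = 4). Tdg, the glycosylase that removes oxidised methylcytosine, had a log2 fold change of 0.53 (SE 0.43) and Tet2, an enzyme that oxidises methylcytosine, one of 0.30 (SE 0.45), each with a limma adjusted p of 0.9995. A list of 25 germline genes known to be silenced through promoter methylation was also examined. Of these 13 were listed, 5 were tested and 0 were called by limma or limma-voom, with 0 at an unadjusted p under 0.05 and a median of −0.01 over these 5, of which 1 lay above the median gene and 4 below it. Taf9b, a general transcription factor gene (15.9 ± 4.24 and 16.3 ± 1.93 TPM), and Brdt, a bromodomain gene of male germ cells (14.3 ± 4.57 and 12.7 ± 2.01 TPM, log2 fold change −0.38, SE 0.37), were highest. Neither of these was silent in this organ. Tdrd1, a Tudor gene that binds PIWIL2 and belongs to both the piRNA pathway and the germline list, stood at 0.819 ± 0.432 and 1.23 ± 0.864 TPM (0.09, SE 0.47). The other 8 listed genes of the germline list did not pass the filter and were not tested. Of these, 7 had a higher mean in the knockout than in the heterozygous libraries as deposited, or 6 after division by the library factor, while the groups overlapped in all 8. Among all 7227 untested genes of the table the knockout mean was higher in 55.2% as deposited and in 47.7% after division. Smc1b, a meiotic cohesin gene and the 1 that was lower as deposited, stood at 0.196 ± 0.103 and 0.137 ± 0.0669 TPM in heterozygous and knockout libraries. The germ cell helicase Ddx4, from 2 to 34 reads per library, stood at 0.248 ± 0.229 and 0.578 ± 0.430 TPM, and Dazl, a germ cell RNA-binding gene, from 4 to 16 reads, at 0.151 ± 0.0738 and 0.310 ± 0.0661 TPM (SD, n = 4). Ddx4 had 0.0405 and 0.0693 TPM in heterozygous replicates 1 and 2, numbered below 7100. It had 0.506 and 0.374 TPM in heterozygous replicates 3 and 4, within the knockout range of 0.137 to 1.06 TPM.

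Genes of other cell types were described in the same way. By limma and limma-voom, which called 0.586% and 0.515% of all genes, 0 were called among 8 progenitor, 6 immature neuron, 7 mature neuron, 12 immune, 5 erythroid and 10 gland and supporting cell genes, and their median log2 fold changes were 0.16, −0.07, −0.21, −0.11, 0.40 and −0.19. All 5 tested erythroid genes lay above the median gene, and the list summed to 3900 to 20930 TPM in heterozygous and 4954 to 14335 TPM in knockout libraries, with heterozygous replicate 2 highest. In these lists 1 gene had an unadjusted p under 0.05 in limma, where 3.1% of all genes did. It was Omp, higher by 1.28 on the log2 scale than the median gene (SE 0.53, adjusted p = 0.702 in limma), opposite in sign to the median of its list and with heterozygous replicate 1, at 66.6 TPM, far below the other libraries. Summed, the immature neuron genes ranged from 135 to 341 TPM in heterozygous and 231 to 320 TPM in knockout libraries, and the mature neuron genes from 664 to 1908 and 1134 to 1590 TPM. Their part in the level of Tex15 was not tested. None of the 6 tested genes was called by sex (0 in limma, where 0.0492% of all genes were, with 5 of 5 sex-linked genes among them). The male minus female log2 differences ran from −0.27 for Uhrf1 to 0.20 for Tex15, with unadjusted limma p of 0.528 and 0.601.

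The promoters of the genes were described by their CG dinucleotides, the bases on which most DNA methylation lies. RefSeq promoters (build GRCm38.p6, 250 bases before to 50 bases after a start) were matched by symbol for 7 of the 10 genes, at 15 starts. Over 32851 such promoters the median was 7 CG, with quartiles of 3 and 20. The richest start of Dnmt3a held 47 CG, that of Dnmt1 33, that of Uhrf1 33 and the only start of Dnmt3b 30. The richest start of Piwil4 held 11, the start of Tdrd9 10 and the richest start of Dnmt3l 6. Other starts of the same gene could be poorer, down to 2 CG for Dnmt1 and 0 for Piwil4, and the table does not say which start was used in these animals. The richest starts of Dnmt3a and Dnmt1, far above the median, and of Tdrd9 and Dnmt3l, close to it on either side, are shown 5′ to 3′ on the gene's strand, with each CG in capitals.
Dnmt3a (chr12:3806910-3807209, plus strand): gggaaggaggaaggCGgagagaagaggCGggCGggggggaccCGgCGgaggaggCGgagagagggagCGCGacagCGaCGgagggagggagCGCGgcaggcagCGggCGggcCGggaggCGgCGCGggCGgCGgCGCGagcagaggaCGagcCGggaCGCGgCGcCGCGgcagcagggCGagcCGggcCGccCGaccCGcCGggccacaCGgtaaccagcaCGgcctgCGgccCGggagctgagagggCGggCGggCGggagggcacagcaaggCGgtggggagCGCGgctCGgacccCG
Dnmt1 (chr9:20952574-20952873, minus strand): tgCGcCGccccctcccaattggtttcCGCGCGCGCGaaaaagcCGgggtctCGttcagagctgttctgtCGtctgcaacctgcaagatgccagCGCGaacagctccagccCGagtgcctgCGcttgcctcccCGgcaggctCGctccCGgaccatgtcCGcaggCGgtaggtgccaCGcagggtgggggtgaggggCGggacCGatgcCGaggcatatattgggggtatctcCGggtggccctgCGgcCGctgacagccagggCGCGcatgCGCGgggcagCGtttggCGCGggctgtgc
Tdrd9 (chr12:111971309-111971608, plus strand): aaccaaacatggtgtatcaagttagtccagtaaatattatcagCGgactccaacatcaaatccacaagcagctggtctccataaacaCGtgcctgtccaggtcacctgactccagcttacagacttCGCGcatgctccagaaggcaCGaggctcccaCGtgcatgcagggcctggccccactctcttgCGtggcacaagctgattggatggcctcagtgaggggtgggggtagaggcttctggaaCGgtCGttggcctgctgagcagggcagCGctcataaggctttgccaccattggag
Dnmt3l (chr10:78042037-78042336, plus strand): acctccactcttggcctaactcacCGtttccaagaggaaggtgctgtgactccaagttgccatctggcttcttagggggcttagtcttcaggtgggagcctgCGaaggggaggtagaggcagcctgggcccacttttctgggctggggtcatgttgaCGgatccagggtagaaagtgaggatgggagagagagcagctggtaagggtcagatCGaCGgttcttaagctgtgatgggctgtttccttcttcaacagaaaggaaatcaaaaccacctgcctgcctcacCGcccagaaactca
In Dnmt3a and Dnmt1 the capitals run through the whole window, and in Tdrd9 and Dnmt3l they are scattered. This describes the sequence only, since methylation was not measured.

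**Figure D5:**
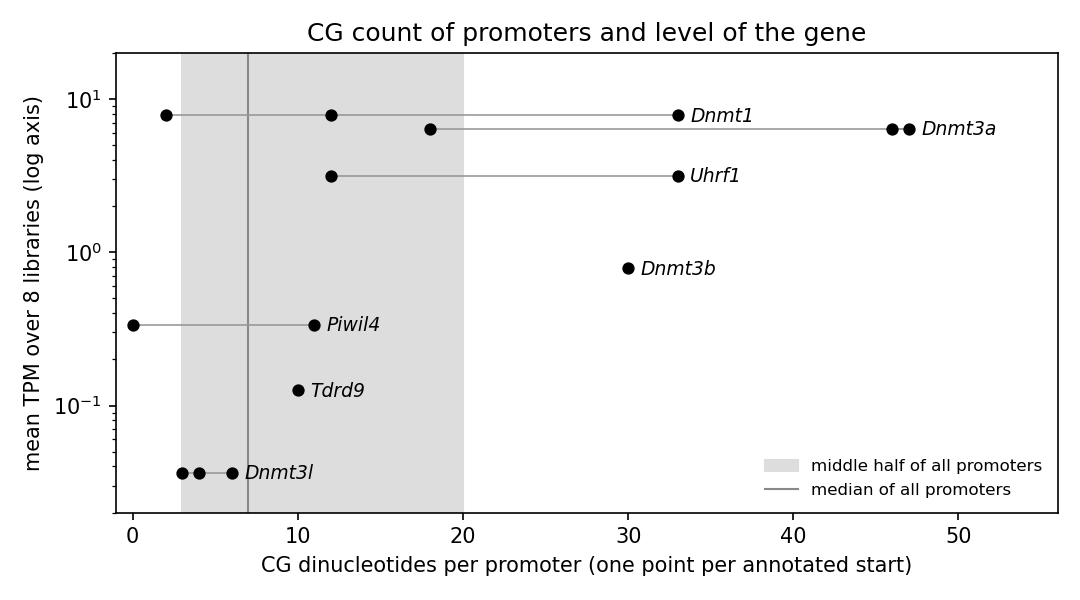
Number of CG dinucleotides in the 300 bases around each annotated start (horizontal axis, a point per start, starts of a gene joined) against the gene's mean level over the 8 libraries in TPM (vertical axis, logarithmic). Grey marks the quartile range and the median of 32851 promoters. Of the 7 genes shown, the 4 with a start of 30 or more CG are those at 0.784 TPM or above, bounds chosen after the values were seen. Some of these genes also have poorer starts, and Tex15, Spocd1 and Piwil2 had no matched promoter.

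The genes most like Tex15 over the 8 libraries were sought among the 17991 genes that averaged 1 TPM or more. The closest 3 were Vmn2r36 (Pearson r 0.98), a vomeronasal type 2 receptor, the protein-coding gene Gm10302 (0.98) and the processed transcript AC139131.1 (0.98), and all 3 lie on chromosome 7. Vmn2r36 stood at 14.8 to 32.3 TPM in heterozygous and 1.09 to 2.80 TPM in knockout libraries, so the likeness is mostly that of 2 genotype groups that do not overlap. A correlation of 0.9 or more was reached by 85 genes.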

How the data were processed

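RNA was taken from the vomeronasal organ of 8 mice, and polyadenylated RNA was sequenced as paired reads, per the labels' protocols. The authors deposited 1 table of TPM values, 1 column per library, with no counts, and 0 columns were left unused. The submitters' processing notes name Trim Galore 0.6.5, cutadapt 5.1, STAR 2.7.11b and deepTools 3.5.5 and the builds mm10 and GRCm38, and the counting program, annotation and filters are not given in the sources used here. TPM keeps no depth, so reads were recovered by multiplying each value by the exon length in GENCODE M21 (GRCm38) and dividing by the worth of 1 read. Between 97.9% and 98.4% of low values in a library came within 0.05 of whole reads, and reads were recovered for 99.1% of genes. Floors of 3 reads cover counting error only.

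Genes that averaged 0.5 TPM or more (20305) were fitted with limma (version 3.58.1, R 4.3.3, eBayes with trend) after 0.5 was added to the TPM and log2 was taken, with genotype and sex as terms and Benjamini-Hochberg adjustment over all genes tested. Such fold changes understate those of low genes. In the genotype term, heterozygous replicate 1 and knockout replicate 1, alone of their sex in their group, each had a weight of 0.5 and the remaining 6 libraries of 0.167. Each animal is a library, and Python 3.11.15 with scipy 1.17.1 ran the exact permutation tests. The genes, lists and tests were chosen with earlier results of these data known. Named besides the 10 genes were, from each pathway list with 0 called, the 2 with the highest mean and the 2 with the largest fold change, and the 3 genes most like Tex15. Other genes named were chosen after their values were seen. Alternatives were pseudocounts, filters, scaling, designs, limma-voom on recovered reads and leaving out libraries.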

Additional observations from a re-analysis of the deposited data

Results flagged for a closer look

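Among 20 groups of 4 libraries (10 genes, 2 genotypes), 2 held a library far from the other 3, where chance gives about 1 in 20 for values without ties. Tdrd9 stood at 0.173 TPM in knockout replicate 4, from 10 reads, against 0.0925 to 0.104 TPM in the other knockout libraries, from 5 or 6 reads. Dnmt3l stood at 0.0729 TPM in heterozygous replicate 3, from 2 reads, with 0 reads in the other heterozygous libraries, so that any value above 0 in the fourth would have stood apart.

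Tdrd9 also moved in opposite directions in the sexes. The female knockout library lay below the mean of the 3 female heterozygous libraries (0.0954 against 0.161 TPM, a difference of −0.0657), and the 3 male knockout libraries were on average 0.0669 TPM above the male heterozygous library (0.123 against 0.0564 TPM). The difference was not tested, and it rests on 5 to 13 reads per library.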

How the results depend on the processing

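Tex15 kept its direction under all 19 alternatives (−1.60 to −0.74 on the log2 scale, adjusted p 0.0185 to 1). The smallest differences were those of the 7100s animals and of the fit with animal series as a term. The 95% interval, centred after the shift of the median gene, included 0 with the series term and without heterozygous replicate 1 (−2.25 to 0.18). Before that shift the fit with the series term gave −1.12 for Tex15, with an unadjusted limma p of 0.0118. The unadjusted limma p for Tex15 was 0.0729 without heterozygous replicate 1. Without knockout replicate 1 it was 0.124, although the interval was −2.64 to −0.19. Tex15 passed the threshold only in limma-voom on recovered reads (−1.60), where the count of the 6 tested genes called went from 0 to 1. Without 1 library at a time the log2 fold change of Tex15 was −1.41 to −1.04, 0 of the 6 genes tested were called, and 83 to 254 of all genes were called, with 202 without heterozygous replicate 2, 254 without heterozygous replicate 4 and 190 without knockout replicate 4. More genes were called lower than higher in each of these fits except that without knockout replicate 1 (69 higher, 42 lower). The count over all genes was 72 with no filter, where more genes enter the adjustment, and 184 in the 7100s animals without the sex term. The cause of the latter was not tested. Dnmt3a reversed to −0.11 with animal series as a term. Piwil2 reversed to 0.017 without heterozygous replicate 1, the upper end of a range that began at −0.276 without knockout replicate 1, and to 0.073 in an alternative chosen after seeing the data (scaling without the sex term). In the other alternatives run Dnmt1, Uhrf1 and Dnmt3b kept their sign, and neither Dnmt3a nor Piwil2 reversed elsewhere. The relations with proliferation genes were 0.94 for Uhrf1 and 0.90 for Dnmt1 on TPM as deposited.

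Library numbers are shared between the genotypes but do not pair the animals: correlations of same-numbered deviations were −0.06 to 0.10. With the number as a replicate block 128 genes were called, and Tex15 had −1.22 (adjusted p = 0.522). Depth limits Spocd1, Dnmt3l and Tdrd9, which had 63 reads or fewer over all libraries.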
